A study of Mus musculus with 2 samples.

Results

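The miR-130/miR-301 family of mouse comprises the microRNA (miRNA) genes Mir130a, Mir130b, Mir301 and Mir301b, which share a seed. The 4 genes were taken by symbol from the 1973 miRNA genes counted in embryonic lung of the B6NCrl mouse strain at day 14.5 (E14.5), when the airways branch. The 2 libraries, replicate 2 and replicate 1, formed a single group, and the labels gave no genotype, treatment or other stage, so the design held no contrast between conditions. Per the labels the libraries came from lungs of separate pups taken on different days, although the sex was given as pooled, so effects of replicate and of day cannot be told apart and more than 1 embryo per library is possible. MicroRNA sequencing read RNA under 30 nt, and reads were counted per miRNA gene, without separating the 5p and 3p arms of a hairpin.

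A miRNA pairs with messenger RNAs mainly through its seed, bases 2 to 8 of the mature strand, and lowers their stability and translation. Family members with the same seed therefore can recognise overlapping sets of targets whichever locus they come from. In mouse embryonic lung miR-130a has been studied as a regulator of airway branching and vessel formation, and the family is known from work on pulmonary hypertension, where its targets include the nuclear receptor gene Pparg.

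The mature 3p sequences of 3 members and the matching stretch of the Mir301b hairpin show what the family shares and where its members part. Each is written 5′ to 3′ from RefSeq (GRCm38.p6), with the seed in capitals.
miR-130a-3p: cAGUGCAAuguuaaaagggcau
miR-130b-3p: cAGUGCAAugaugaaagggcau
miR-301a-3p (gene Mir301): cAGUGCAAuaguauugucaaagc
Mir301b hairpin, bases 55 to 77: cAGUGCAAugguauugucaaagc
All 4 had the seed AGUGCAA and were identical up to base 9, counted from 1 at the 5′ end. Beyond it they formed 2 pairs. The miR-130 pair was identical at 20 of 22 bases, with the differences U11A and A13G from miR-130a-3p to miR-130b-3p. The miR-301 pair was identical at 22 of 23 bases, with the difference A10G from miR-301a-3p to the Mir301b stretch. Across the pairs, miR-130a-3p and miR-301a-3p matched at 12 of 22 bases. 

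The opposite arms did not share a seed across the family. The miR-301a and miR-301b 5p arms shared the seed CUCUGAC, whereas those of miR-130a and miR-130b had CUCUUUU and CUCUUUC. The 5p arms are shown because gene counts hold reads of both arms, again with bases 2 to 8 in capitals.
miR-130a-5p: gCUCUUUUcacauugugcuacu
miR-130b-5p: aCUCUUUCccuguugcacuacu
miR-301a-5p: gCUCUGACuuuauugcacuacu
miR-301b-5p: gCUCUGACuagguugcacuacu

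The 4 genes lie at 3 loci (mm10 coordinates, GENCODE M21). Mir130a (ENSMUSG00000065484.1) lies on the minus strand of chromosome 2 (84741115 to 84741178) between annotated genes, with the 3′ end of Gm19426 990 bases upstream on the same strand. Mir301 (ENSMUSG00000065589.1), the gene of miR-301a, occupies bases 87113004 to 87113089 on the plus strand of chromosome 11, within an intron of Ska2, which encodes a subunit of a complex at kinetochores. Mir301b (ENSMUSG00000076288.1; 17124400 to 17124496) and Mir130b (ENSMUSG00000065572.1; 17124061 to 17124142) lie on the minus strand of chromosome 16. Both sit in 1 intron of 2610318N02Rik, Mir301b first in the direction of transcription and 257 bases from Mir130b. The chromosome 16 locus thus carries 1 member of each sequence pair, while the other member of each pair stands alone.

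**Figure D1:**
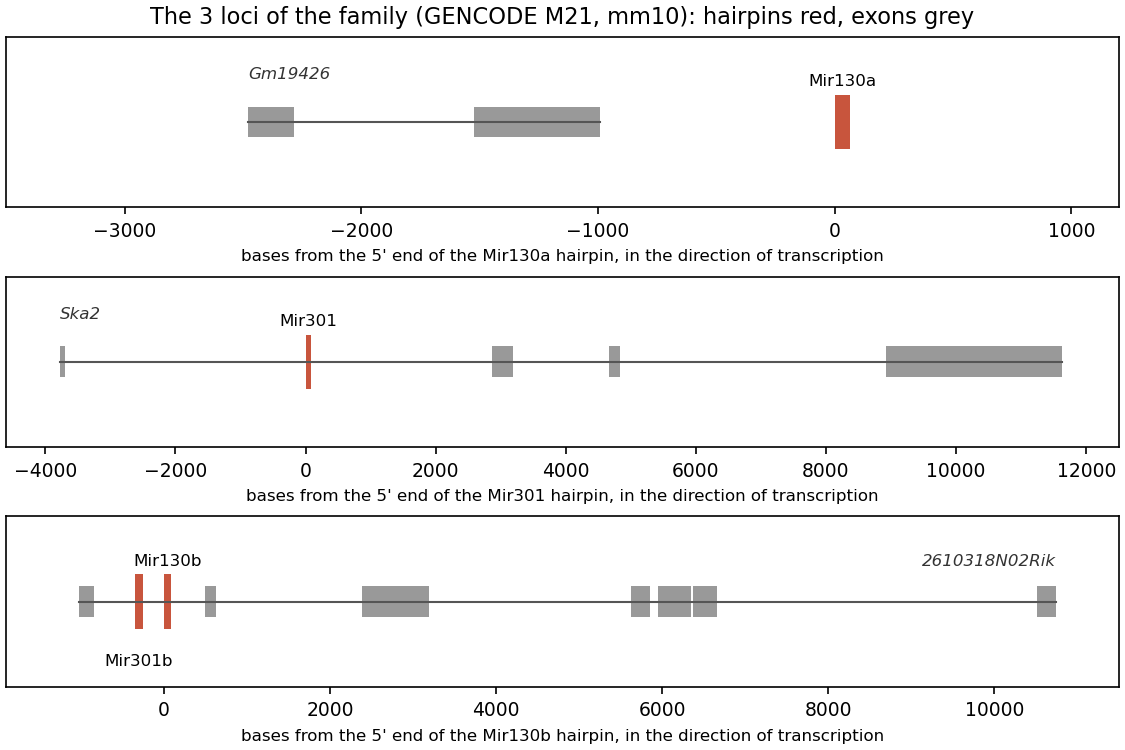
Map of the 3 loci, with the distance in bases from the 5′ end of a hairpin along the direction of transcription on each horizontal axis. Red boxes are hairpins, grey boxes exons of the named gene in any annotated transcript; Mir301b and Mir130b lie 257 bases apart in 1 intron, Mir301 in an intron of Ska2, and Mir130a 990 bases beyond the end of Gm19426.

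The hairpins are given with the core CAGUGCAA in capitals and differ in length.
Mir130a: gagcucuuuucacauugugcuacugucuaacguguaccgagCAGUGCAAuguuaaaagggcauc
Mir130b: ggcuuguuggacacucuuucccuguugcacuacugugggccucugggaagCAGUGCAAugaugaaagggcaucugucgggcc
Mir301: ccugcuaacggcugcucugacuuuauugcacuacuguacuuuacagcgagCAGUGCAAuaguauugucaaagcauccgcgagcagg
Mir301b: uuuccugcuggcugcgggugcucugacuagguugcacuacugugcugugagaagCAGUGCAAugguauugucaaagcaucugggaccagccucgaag
Their lengths were 64 nt for Mir130a, 82 nt for Mir130b, 86 nt for Mir301 and 97 nt for Mir301b. The minimum free energy predicted by RNAfold was -22.1 kcal/mol for Mir130a, -30.1 for Mir130b, -37.0 for Mir301 and -39.1 for Mir301b, and it is not scaled for length. In the predicted folds 7 of the 8 core bases were paired in Mir130a, Mir130b and Mir301, and 8 of 8 in Mir301b. The longest run shared with another annotated hairpin was 17 nt for Mir130a, with Mir6389, and 16 nt for each of the others. No member shared 20 nt with another hairpin, the length used as a mark for genes that can lose reads to multimapping. Reads of the miR-301 pair differ at a single base, and whether reads with a mismatch were assigned across the pair was not tested.

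Replicate 2 held 2332032 gene-strand miRNA counts and replicate 1 held 5128214, which are the denominators of all counts per 1000000 (CPM) here. Multimapping reads, 33.1% of reads in replicate 2 and 32.9% in replicate 1, were assigned to no gene. Where 0 counts were seen, up to 3 are allowed, which is 1.29 CPM for replicate 2 and 0.585 CPM for replicate 1. Intervals and this limit cover counting error only. Marker miRNAs of endothelium and epithelium were present. Endothelial Mir126a reached 58438 CPM in replicate 2 against 76033 CPM in replicate 1, and the 5 epithelial miR-200 genes summed to 33730 and 33294 CPM. The liver marker Mir122 was low (39.5 CPM in replicate 2, 22.4 CPM in replicate 1). The 3 heart markers summed to 42.02 CPM in replicate 2 against 361 CPM in replicate 1, and the part of such tissue in the family's values was not tested.

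Mir130a dominated the family, and the 4 members kept the order Mir130a, Mir130b, Mir301, Mir301b in both libraries, with 432-fold between the ends in replicate 2 and 445-fold in replicate 1. Mir130a, studied for its role in vessel growth, had 76397 counts in replicate 2 and 157219 in replicate 1. These were 32760 CPM (95% exact binomial interval 32532 to 32989) and 30658 CPM (30509 to 30807), a mean of 31709 ± 1486 CPM (SD, n = 2). It ranked 11th of 1973 genes in replicate 2 and 10th in replicate 1. The next member, Mir130b, ranked 32nd and 36th.

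Mir130b, the more abundant gene of the chromosome 16 locus, had 15843 counts in replicate 2 and 29056 in replicate 1. Its level was 6794 CPM (6689 to 6900) and 5666 CPM (5601 to 5731), a mean of 6230 ± 797 CPM (SD, n = 2). The replicate intervals of Mir130b did not overlap, so counting error alone does not span the gap between them. The gap is small beside the distance to the other members. The unscaled intervals of Mir130a and Mir301 did not overlap either. Such gaps were common at these levels: 84.8% of the 105 genes of at least 1000 CPM differed between the libraries in the binomial test below.

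Mir301, which gives miR-301a from the Ska2 intron, had 3454 counts in replicate 2 and 6123 in replicate 1. Its level was 1481 CPM (1432 to 1531) and 1194 CPM (1164 to 1224), a mean of 1338 ± 203 CPM (SD, n = 2), at rank 87 and rank 95. It was the third member in both libraries.

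Mir301b, which precedes Mir130b in their shared intron, had 177 counts in replicate 2 and 353 in replicate 1. Its level was 75.9 CPM (65.1 to 87.9) and 68.8 CPM (61.8 to 76.4), a mean of 72.4 ± 5.00 CPM (SD, n = 2), at rank 207 in both libraries. Its intervals overlapped between the libraries. The low count makes it the least precisely measured member, yet it stood well above the limit that a count of 0 allows.

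Together the 4 genes held 95871 counts in replicate 2 and 192751 in replicate 1. That was 4.11% of gene-strand counts (4.09 to 4.14) and 3.76% (3.74 to 3.78), a mean of 3.93% ± 0.249 (SD, n = 2). Mir130a accounted for 79.7% of family counts in replicate 2 and 81.6% in replicate 1, and Mir130b for 16.5% and 15.1%. Mir301 accounted for 3.60% and 3.18%, and Mir301b for 0.185% and 0.183%. By locus, the chromosome 16 pair together gave 16.7% in replicate 2 (16.5 to 16.9) and 15.3% in replicate 1 (15.1 to 15.4).

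Further genes carry the same seed, and those in the tables had no counted reads. The RefSeq sequences used here hold the seed in 7 mature miRNAs. These include miR-130a-3p, miR-130b-3p and miR-301a-3p, but no mature miR-301b-3p, which the sequences used lack. Of the other genes, Mir130c, Mir6341 and Mir6389 are no members of the family as taken here but were in the count tables. Each had 0 counts in both libraries. Mir721, which also has the seed, was not found by symbol in the count tables. Among the genes in the count tables that carry the seed AGUGCAA, the 4 members therefore held all counts, which can also include reads of their 5p arms. Among 185 seeds carried by at least 2 counted genes, the summed counts of this seed ranked 7th in replicate 2 and 6th in replicate 1. This rank is approximate, because a gene enters under the seeds of both its arms and copies with identical sequence lose multimapping reads. The let-7 seed GAGGUAG ranked first in both libraries, with 11.6% and 12.3% of counts.

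Other miRNA families have a seed that overlaps AGUGCAA by 6 bases when shifted by 1 base. The miR-148/miR-152 seed lies 1 base upstream and the miR-19 seed 1 base downstream, as shown by a member of each with its seed in capitals.
miR-148a-3p: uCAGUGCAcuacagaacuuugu
miR-19a-3p: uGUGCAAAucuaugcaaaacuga
Both families held far fewer counts. The miR-148/miR-152 family, which includes regulators of DNA methyltransferase messages, held 0.190% of counts in replicate 2 and 0.170% in replicate 1 over Mir148a, Mir148b and Mir152. The miR-130/miR-301 family exceeded it 21.6-fold (exact interval 20.98 to 22.3) in replicate 2 and 22.1-fold (21.6 to 22.6) in replicate 1. The most abundant of the 3, Mir148a, reached 1156 CPM in replicate 2 against 1014 CPM in replicate 1, below Mir301 in both.

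The miR-19 genes, which belong to the growth-promoting miR-17~92 cluster and its X-linked paralogue, held 0.0143% of counts in replicate 2 and 0.0106% in replicate 1. These shares are lower bounds, so no fold between the families is given. Mir19a, with 84.5 and 65.5 CPM in replicate 2 and replicate 1, lay close to Mir301b. Mir19b-1 and Mir19b-2 have the same mature sequence over 23 nt, so reads common to both would multimap, and their 42.02 and 16.3 CPM in replicate 2 and 31.6 and 8.58 CPM in replicate 1 are lower bounds. These comparisons are between reads of different sequences, and how evenly the sequences were captured was not measured.

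**Figure D2:**
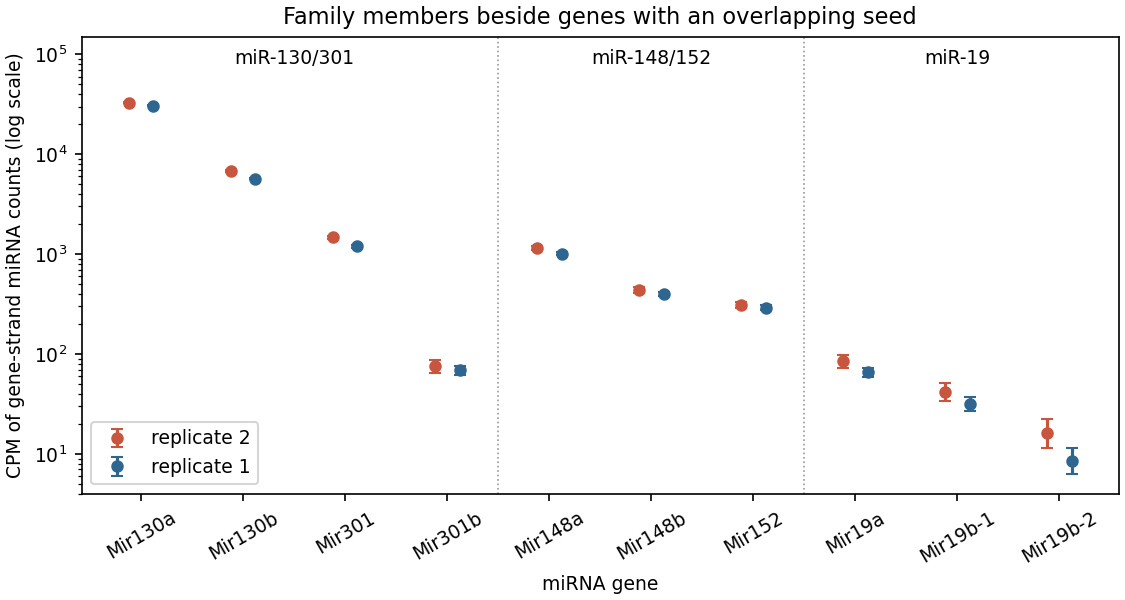
Levels in CPM (vertical log axis) of the 4 family members and of 6 genes whose seeds overlap theirs, with replicate 2 left of replicate 1 and bars for 95% exact binomial intervals. Mir130a stands highest at 32760 and 30658 CPM, and Mir301b, at 75.9 and 68.8 CPM, lies at the level of Mir19a.

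Ratios between members were taken within a library, where they need no scaling. They too compare reads of different sequences, and how evenly these were captured was not measured. Mir130a exceeded Mir130b 4.82-fold (exact interval 4.74 to 4.91) in replicate 2 and 5.41-fold (5.34 to 5.48) in replicate 1, which is a mean log2 ratio of 2.35 ± 0.12 (SD, n = 2). Mir130b in turn exceeded Mir301 4.59-fold (4.42 to 4.76) and 4.75-fold (4.62 to 4.88), a log2 ratio of 2.22 ± 0.03. The intervals of the first ratio did not overlap between the libraries, whereas those of the second did.

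Within each sequence pair, the member that stands alone exceeded the one on chromosome 16. For the miR-130 pair this is the ratio of Mir130a to Mir130b above. For the miR-301 pair Mir301 exceeded Mir301b 19.5-fold (16.8 to 22.8) in replicate 2 and 17.3-fold (15.6 to 19.4) in replicate 1, which is a mean log2 ratio of 4.201 ± 0.12 (SD, n = 2). 

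The pair of genes that shares an intron on chromosome 16 differed widely. Mir130b exceeded Mir301b 89.5-fold (77.2 to 104) in replicate 2 and 82.3-fold (74.1 to 91.7) in replicate 1, which is a mean log2 ratio of 6.42 ± 0.09 (SD, n = 2). The full span of the family, Mir130a over Mir301b, was 432-fold (372 to 503) and 445-fold (401 to 496). All 6 ratios between members lay on the same side of 1 in both libraries. The smallest p that an exact two-sided sign test allows over 2 libraries is 0.5, and no such test was made.

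**Figure D3:**
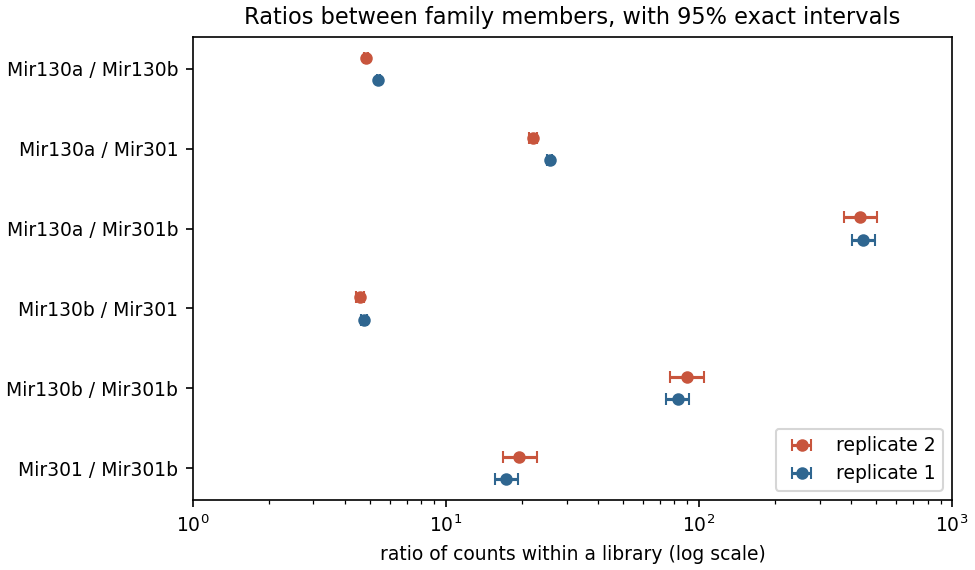
Ratios of counts between family members (horizontal log axis) in replicate 2, the upper point of each row, and replicate 1, with 95% exact intervals. The 6 ratios run from 4.59 and 4.75 for Mir130b over Mir301 to 432 and 445 for Mir130a over Mir301b.

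Between the libraries, the log2 ratios of the 4 members lay between 0.01 and 0.22, with Mir301 and Mir130b higher in replicate 2 beyond counting error. Genes with 10 or more counts summed over the libraries were compared with an exact two-sided binomial test on library sizes scaled by the trimmed mean of M values (TMM), adjusted over 404 genes by the Benjamini-Hochberg method. The test compares the reads of 2 libraries and not conditions. Of the 4 members 2 were called at an adjusted p of 0.05, both higher in replicate 2, against 41.8% of all genes tested (17.8% higher and 24% lower in replicate 2). Among the 105 genes of at least 1000 CPM 84.8% were called (32.4% higher and 52.4% lower), and of the 3 members at that level 2 were called. A call is thus common at these levels.

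Mir301 had the largest log2 ratio of replicate 2 to replicate 1 of the 4, at 0.22, or 1.17-fold (exact binomial test, adjusted p = 4.72e-12). Mir130b followed at 0.17, or 1.13-fold (adjusted p = 2.18e-32, exact binomial test). The log2 ratio was 0.05 for Mir301b (adjusted p = 0.856, exact binomial test). For Mir130a it was 0.01 (adjusted p = 0.481, exact binomial test), but 0.10 with library totals and -0.04 with DESeq2 size factors, each with an adjusted p below the threshold, so its direction depends on the scaling. The median over the 4 members was 0.11, against -0.03 over all 404 genes. The median absolute log2 ratio was 0.11 over the members and 0.23 over all genes tested, or 0.15 over the 105 genes of at least 1000 CPM.

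With the common dispersion of these 2 libraries (0.0341, a coefficient of variation of 18.5%) added to counting error in an exact beta-binomial test, 0.248% of genes were called. This was 1 gene, Mir208a, and 14 genes had an unadjusted p below the threshold. None of the 4 members was called, with an adjusted p of 1 for each in that exact test. The differences of Mir130b and Mir301 thus passed the test against counting error and not the test that adds the spread of these libraries. That spread was estimated from the same 2 libraries that the test compares. A difference of ordinary size between them could therefore hardly pass it.

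**Figure D4:**
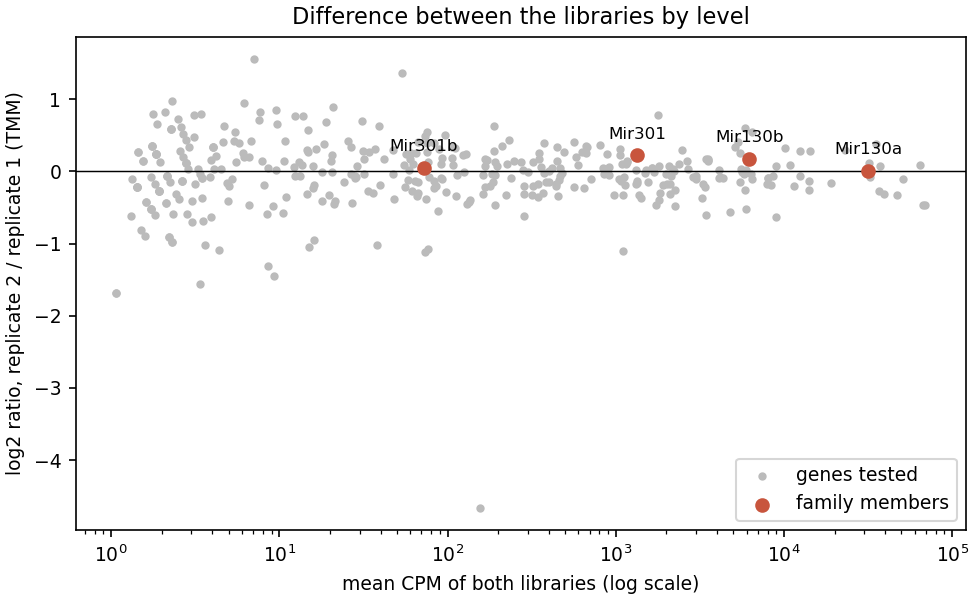
Log2 ratio on TMM-scaled CPM, replicate 2 over replicate 1 (vertical axis), against mean CPM (horizontal log axis) for the 404 genes tested, grey, with the 4 family members in red. The members lie between 0.01 and 0.22; the lowest grey point is Mir208a.

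The genes closest to each member in level were found by the Euclidean distance of log2(CPM + 1) over the 2 libraries, which says nothing of shared control. Mir26b (32663 CPM in replicate 2, 32273 in replicate 1, distance 0.074) and Mir23b (34367 and 29871 CPM, distance 0.079) lay closest to Mir130a. The order of these 3 genes changed between the libraries: Mir26b lay below Mir130a in replicate 2 and above it in replicate 1, and Mir23b the other way round. Mir200b (distance 0.14), of the epithelial miR-200 family, and Mir487b (0.15), of the imprinted Dlk1-Dio3 region, lay closest to Mir130b. Mir674 (0.15) and Mir532 (0.25) lay closest to Mir301, and Mir128-1 (0.067) and Mir103-2 (0.12) to Mir301b. Mir23b, Mir487b, Mir128-1 and Mir103-2 each share 20 nt with another hairpin, so their levels are those left after multimapping reads were set aside.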

How the data were processed

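MicroRNA-seq of 2 libraries of E14.5 mouse lung, 1 group, was used. The authors deposited whole-number counts per miRNA gene, not normalized, in 3 columns, read from their values as unstranded, gene-strand and opposite-strand. Per the deposited readme, reads were aligned to mm10 with GENCODE M4; no aligner, counter, trimming or mismatch setting is given in the sources used here. The gene-strand column was used. The summary entries (in replicate 2 and replicate 1, unmapped 11.7% and 12.7%, multimapping 33.1% and 32.9% of reads) are no genes and were kept out of library sizes. Of 1973 identifiers 1894 matched GENCODE M21. Counts on the deposited gene strand made up 51.3% of reads in replicate 2 and 50.3% in replicate 1, and 1 count was 0.429 and 0.195 CPM.

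CPM, shares and within-library ratios were computed with 95% exact (Clopper-Pearson) intervals. The libraries were compared with exact binomial tests, Benjamini-Hochberg adjusted, on TMM sizes, for genes with at least 10 counts; log2 ratios used a pseudocount of 1 CPM. P-values of the binomial test are set against counting error only and measure no spread between libraries. The beta-binomial test adds the common dispersion of these 2 libraries. On simulated counts for the same comparison (404 genes, 200 changed), 396 reached 10 counts, 196 of them changed. The test called 81.8% of 99 genes changed 2-fold, 64.9% of 97 changed 1.41-fold and 5 of 200 unchanged ones. The simulated counts held counting error only, without the spread between these libraries. How often the test calls unchanged genes in the real libraries is thus not given by these rates. Hairpins were folded with RNAfold (ViennaRNA 2.7.2); edgeR 4.0.16 and DESeq2 1.42.0 gave scaling factors.

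The members, lists and tests were chosen with earlier results of these data known. Named genes were the members, genes with the same seed, the 2 families with an overlapping seed, miRNA genes within 10000 bases, and the 2 genes nearest in level to each member. Mir208a and Mir126a come from the marker list, and the let-7 seed was named after its values were seen.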

Additional observations from a re-analysis of the deposited data

Results flagged for a closer look

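Mir130a had 6 reads on the strand opposite to the gene in replicate 1, above the 3 counts that a count of 0 allows, in a column that no comparison used. Replicate 2 held 2 such reads. They were 0.00262% of the reads at Mir130a in replicate 2 and 0.00382% in replicate 1. Over all genes, opposite-strand counts were 67687 in replicate 2 and 150350 in replicate 1, beside 2332032 and 5128214 on the gene strand. Opposite-strand reads were thus rarer at Mir130a than over all genes. The other 3 members had 0 opposite-strand reads in both libraries.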

How the results depend on the processing

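The 6 ratios between members kept their direction under every alternative run for them (another count column, a pseudocount, each replicate left out). These alternatives could hardly have reversed ratios of this size. The other count column adds at most 6 reads to a member, and leaving out a replicate only repeats the values of the other. Without each replicate in turn, the family share ranged from 3.76% to 4.11%. Levels followed the denominator: with multimapping and other mapped unassigned reads in it, Mir130a stood at 18342 CPM, Mir130b at 3605, Mir301 at 774, Mir301b at 41.9 and the family at 2.28%. Without the most abundant gene in it, Mir130a stood at 34066 CPM, Mir301b at 77.7 and the family at 4.23%. Without Mir130a the other 3 members held 0.764% of counts. Against library totals, log2 ratios of all genes moved by -0.09 with TMM and by -0.14 with DESeq2 size factors. The DESeq2 size factors, 1.414 for replicate 1 and 0.707 for replicate 2, stand in an exact whole-number ratio. Like the TMM factors, they were taken without the low-count filter, so the sign of a small log2 ratio under either scaling is to be read with care. The log2 ratio of Mir130a was -0.041 with DESeq2 size factors (exact binomial adjusted p = 4.73e-10) and 0.10 with library totals (adjusted p = 1.29e-49, exact test), against 0.01 with TMM. With the common dispersion added, Mir130b (0.17) and Mir301 (0.22) were no longer called, and 1 gene was called in place of 169. Of those 169 genes 72 were higher and 97 lower in replicate 2, against 112 and 65 with library totals. The lower depth of replicate 2 limits Mir301b most. No paired analysis was possible because the design has a single group, and the tests between the libraries have no version without a replicate.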

Other observations

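Mir130b and Mir301b lie in 1 intron, and the gap between them was set beside that of other neighbouring miRNA genes, a choice made after its value had been seen. Among 104 pairs of adjacent genes on the same strand, less than 10000 bases apart and each with at least 10 counts in both libraries, the median absolute log2 ratio of counts was 2.92. Genes below 10 counts in either library were left out before pairing, so adjacent means adjacent among the genes kept. This leaves out pairs of an abundant gene with one below 10 counts, so pairs with a wide gap can be undercounted. The log2 ratio of Mir130b to Mir301b was 6.42, and 9 of the pairs kept had a wider gap. Both genes had a hairpin in the RefSeq table in 88 pairs. In 53 of these neither gene shares 20 nt with another hairpin of that table. Of those 53 pairs, 3 had a wider gap, and the median was 2.62. Pairs within 1 cluster share genes and are not independent, so this is a description without a test.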
